A study of Mus musculus with 16 samples.

Results

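Of 16 newborn mouse brains measured on 1 microarray each, 3 carried a strong signal of the growth hormone gene Gh. These arrays were chosen by the measured Gh signal: the Gh probe had to be well above background, a flag that the extraction software sets for each spot, and the other 13 arrays are those where it was not. The 3 brains were fresh 3, freeze-dried 1 and heated 1. Because Gh itself chose these arrays, everything that separates them from the other 13 is given as a description and was not tested.

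The study asked whether sperm that had been freeze-dried, and then irradiated or heated, gives offspring with a normal pattern of gene expression. Each array held brain RNA of a C57BL/6 neonate at postnatal day 1, and each of the 4 groups had 4 animals. Fathers contributed fresh sperm in the first group and freeze-dried sperm in the other 3, where it was used as it was, after an X-ray dose of 5 Gy, or after 1 h at 95 °C (below, fresh, freeze-dried, irradiated and heated). The labels do not say which animals were littermates or how the brain was dissected, so p-values between groups measure the spread among these animals and would be too small if littermates were included. Levels are log2 signals minus the 75th percentile of their own array, and a difference of 1 is a doubling.

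The pituitary hangs from the base of the hypothalamus by a stalk and lies in a pocket of the skull floor, so it can stay with the skull or come away with the brain. Its anterior lobe holds hormone cells of several kinds: somatotropes make growth hormone, lactotropes prolactin, corticotropes the hormone precursor Pomc, thyrotropes the beta subunit of thyrotropin (Tshb), and gonadotropes the beta subunits Lhb and Fshb. Cga encodes the alpha subunit that thyrotropin and the gonadotropins share. The intermediate lobe also makes Pomc, and the pars tuberalis, a sheet of cells along the stalk, is known to express Cga and Tshb. Neurons of the hypothalamus make Pomc as well, so a brain without the gland still has some.

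The labelled tissue fitted the signals of all arrays: 14 of the 14 measured markers of brain neurons and glia were well above background on all 16 arrays. The share of spots well above background ran from 59.9% to 66.1% over all arrays and from 59.9% to 63.0% on those with Gh signal. Several of the other 13 arrays stood apart in tissues of their own. Fresh 1 carried skeletal muscle genes, freeze-dried 2 carried epidermal genes, irradiated 3 carried genes of nasal epithelium such as Omp, and fresh 2, freeze-dried 2, heated 2 and heated 4 had low levels of the hindbrain gene Hoxb5. None of the 3 arrays with Gh signal was among them. The Y-linked genes were high in freeze-dried 1, and Xist, the RNA of the silenced X chromosome in females, was high in fresh 3 and heated 1, so both sexes were represented.

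The 3 brains were spread over the study. The fresh, freeze-dried and heated groups each held 1 such animal of 4, and the irradiated group held 0 of 4. Of the 2 slides, each with 8 arrays, slide 1 held 1 of these arrays and slide 2 held 2. Fresh 3 had a Gh level of 2.87, freeze-dried 1 of 2.38 and heated 1 of 2.71. On the other 13 arrays it ran from -7.73 over a median of -7.44 to -5.60. The nearest value outside, -5.60 in fresh 2, was not well above background, and 7.98 log2 units lay between it and the lowest value inside. Against the detection floor of the other arrays, Gh was at least 266-fold higher (the mean of the 3 arrays over the mean of the dimmest signals still above background on the others, a bound used in the same way for the genes below).

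Few genes came along with Gh. A gene was called separated when its lowest level on the 3 arrays lay at least 1 log2 unit above its highest level on the other 13. Of 28509 genes and features well above background on at least 3 of 16 arrays, 5 were separated upward (0.0175%) and 0 downward (0%). All 5 were hormone genes of the pituitary: Gh, Tshb, Pomc, Cga and Prl. Without the demand for 1 log2 unit, 82 genes and features (0.288%) lay higher on all 3 arrays without overlap and 55 (0.193%) lay lower. Most of these gaps were narrow, with 76 of the 82 under 0.3 and the widest of the 55 at 0.31. Only 3 of all 45586 genes and features measured on every array (0.00658%) were well above background on the 3 arrays and on no other, and these were Gh, Prl and Tshb. They passed the filter only through these 3 arrays.

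**Figure D1:**
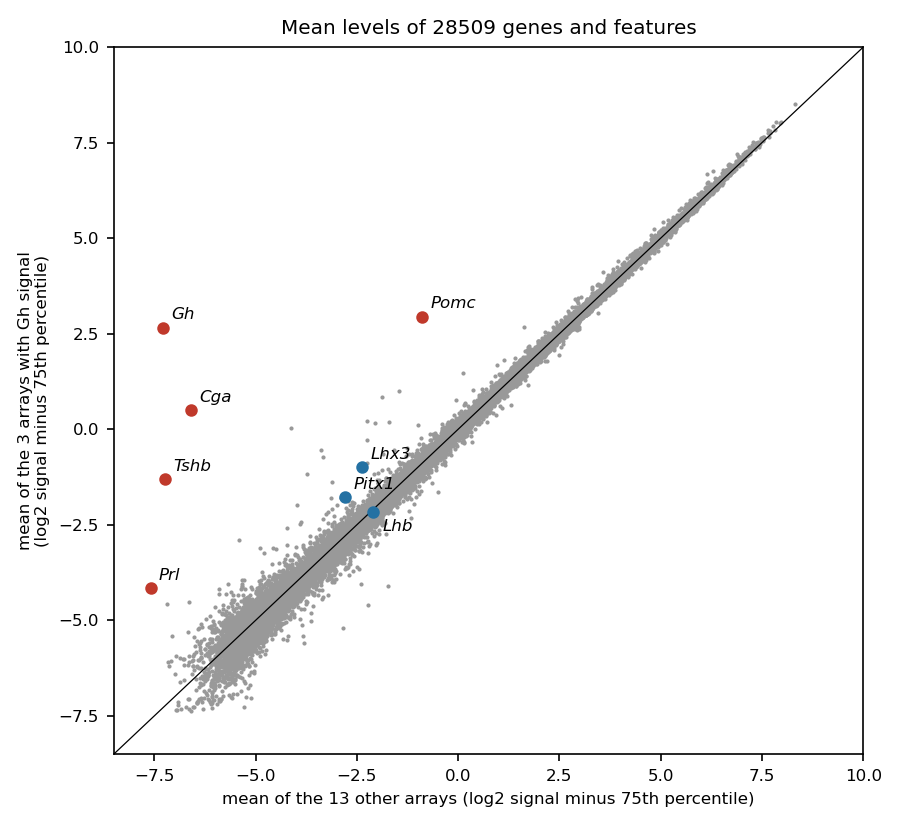
Mean level of each of 28509 genes and features on the 3 arrays with Gh signal (y axis) against the mean of the 13 other arrays (x axis), both as log2 signal minus the 75th percentile of the array; the line marks equal levels. The 5 separated hormone genes (red) stand far above the line, while Lhb lies on it and Lhx3 and Pitx1 (blue) lie close to it.

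Tshb, the thyrotropin subunit that gives the hormone its specificity, was highest in freeze-dried 1 at -0.84, followed by heated 1 at -1.51 and fresh 3 at -1.58. On the other arrays its level ran from -7.85 over -7.33 to -5.54 and was well above background on none of them. The 3 arrays were thus apart from the rest by 3.96, and Tshb was at least 17.0-fold higher.

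Prl, the lactotrope hormone, had the narrowest gap of the 5. Fresh 3 was at -3.45, freeze-dried 1 at -4.82 and heated 1 at -4.19, against -8.00 to -6.66 (median -7.76) on the others. That gap was 1.84, and the bound on the difference was at least 2.37-fold. The highest of the other arrays was irradiated 3, where the probe was not well above background.

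Pomc, the precursor of adrenocorticotropin, melanocyte-stimulating hormone and beta-endorphin, was the 1 hormone gene of the 5 that was well above background on all 16 arrays. In fresh 3 it reached 2.89, against 2.85 for freeze-dried 1 and 3.10 for heated 1. The other 13 arrays lay close together between -1.11 and -0.62 (median -0.90). The 3 arrays were on average 3.84 log2 units, or 14.4-fold, above the other brains, and no array lay in between.

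Cga, the shared alpha subunit, was at 0.81 in heated 1, 0.63 in fresh 3 and 0.03 in freeze-dried 1. The other arrays ran from -7.92 over -7.29 to -3.24. Unlike Gh, Prl and Tshb, Cga was also well above background on 3 of the other 13 arrays, with -3.24 in freeze-dried 2, -4.08 in irradiated 1 and -4.03 in heated 3. These 3 intermediate brains had no detectable Gh (-7.36, -7.44 and -7.16) or Prl (-7.76, -7.63 and -7.33). Tshb was not above background there either, at -5.54 in freeze-dried 2, -6.51 in irradiated 1 and -6.90 in heated 3. The order of such values among the 13 cannot be read. The source of the Cga signal on these arrays was not tested. Pomc was at -0.62 in freeze-dried 2, the highest of the 13, and at -0.87 and -0.93 in irradiated 1 and heated 3. With these 3 arrays left out, a choice made after seeing the data, the same count of 5 genes was separated.

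The 2 gonadotropin beta subunits did not follow. Lhb was well above background everywhere, at -2.12, -2.32 and -2.08 on the 3 arrays, inside the range of -2.50 to -1.73 on the others. Arrays without Gh signal thus already had Lhb signal, and a gonadotrope contribution within that range cannot be read from it. Fshb was above background in heated 1 (-3.74) and in 1 array without Gh signal, freeze-dried 4 (-4.47). In fresh 3 it was at -6.60 and in freeze-dried 1 at -7.63, which overlapped the other arrays.

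**Figure D2:**
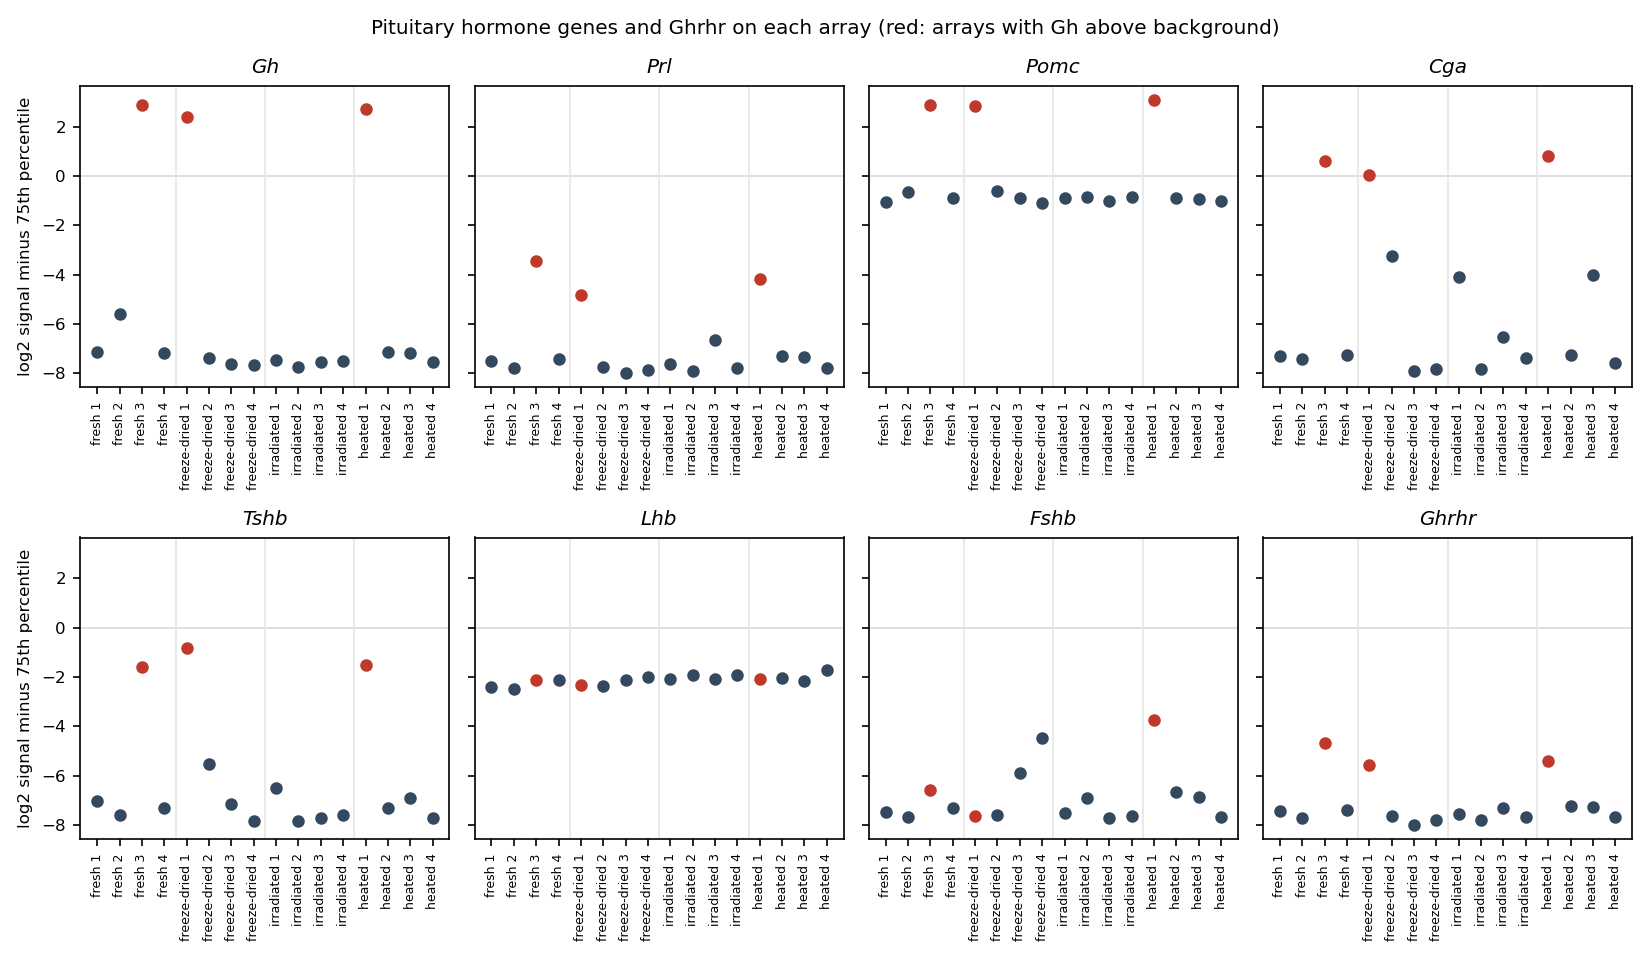
Level of 7 pituitary hormone genes and of Ghrhr on each of the 16 arrays (y axis: log2 signal minus the 75th percentile of the array; x axis: arrays by group; 1 point per array), with the 3 arrays with Gh signal in red. The red points stand apart for Gh, Prl, Pomc, Cga and Tshb, Cga has 3 intermediate arrays between -4.08 and -3.24, and Lhb shows no such split.

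The promoters of the separated hormone genes are shown because these genes were high on the same 3 arrays. RefSeq windows of 300 bases (250 before and 50 after the annotated start, build GRCm38.p6, each on the strand of the gene) were matched for 4 of them: Prl at chr13:27057320-27057619 (plus strand), Tshb at chr3:102782665-102782964 (minus strand), Cga at chr4:34893529-34893828 (plus strand) and Pomc at chr12:3954695-3954994 (plus strand). Capitals mark matches on either strand to ATGNATA, a core that fits sites of the pituitary factor Pou1f1, to TAATTA, a core of many homeodomain proteins including Lhx3, and to TATAAA, the TATA box.
Prl: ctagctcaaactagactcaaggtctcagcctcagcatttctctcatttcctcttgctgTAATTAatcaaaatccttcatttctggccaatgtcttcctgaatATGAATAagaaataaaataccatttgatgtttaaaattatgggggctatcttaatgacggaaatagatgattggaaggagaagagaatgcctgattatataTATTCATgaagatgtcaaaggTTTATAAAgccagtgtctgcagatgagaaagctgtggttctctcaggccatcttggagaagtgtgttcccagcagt
Tshb: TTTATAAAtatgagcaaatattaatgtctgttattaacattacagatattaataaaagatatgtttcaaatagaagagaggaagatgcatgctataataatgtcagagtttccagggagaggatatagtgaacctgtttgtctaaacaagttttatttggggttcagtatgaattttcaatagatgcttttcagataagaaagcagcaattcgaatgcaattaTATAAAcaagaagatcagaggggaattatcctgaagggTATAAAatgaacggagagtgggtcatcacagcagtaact
Cga: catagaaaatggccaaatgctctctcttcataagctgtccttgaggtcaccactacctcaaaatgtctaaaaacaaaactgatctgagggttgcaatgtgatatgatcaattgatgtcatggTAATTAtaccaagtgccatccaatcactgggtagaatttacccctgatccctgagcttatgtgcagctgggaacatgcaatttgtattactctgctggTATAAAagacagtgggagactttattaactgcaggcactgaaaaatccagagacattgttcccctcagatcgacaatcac
Pomc: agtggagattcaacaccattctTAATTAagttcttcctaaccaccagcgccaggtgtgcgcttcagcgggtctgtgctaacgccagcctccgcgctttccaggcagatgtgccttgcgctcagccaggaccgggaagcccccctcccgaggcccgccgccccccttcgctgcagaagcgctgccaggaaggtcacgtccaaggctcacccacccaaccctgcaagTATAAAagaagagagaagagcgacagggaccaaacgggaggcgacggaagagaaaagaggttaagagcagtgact
The Prl window held ATGNATA at 2 places, starting 148 and 47 bases before the start of transcription, and the other 3 windows held none; among 32851 promoter windows 8.84% held at least 1 and 1.5% at least 2. TAATTA was found once each in Prl, Cga and Pomc and in 5.29% of all windows. A TATAAA on the strand of the gene began 24 bases before the start in Prl, 27 in Tshb, 30 in Cga and 25 in Pomc. Over all windows, 1.99% had one starting between 40 and 21 bases before the start, a range chosen after these positions were seen. The Tshb window also held TATAAA on the strand of the gene 248 bases before the start and at base 12 after it. The TATAAA capitals of Prl and the first of Tshb overlap a match on the opposite strand. A match describes the letters and does not show that a factor binds.

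The receptors that carry hypothalamic and other signals to the gland gave 1 gene of the same pattern. Ghrhr, the growth hormone-releasing hormone receptor of somatotropes, was at -4.70 in fresh 3, -5.42 in heated 1 and -5.59 in freeze-dried 1, against -8.00 to -7.24 (median -7.65) elsewhere. Its gap was 1.66, but it was well above background on only 1 array and so did not pass the filter; with no filter it was the sixth separated gene. Of the 12 receptors measured, 9 passed the filter, and 0 of them were separated or free of overlap. The median difference over the 12 was 0.05, as was that over all 45586 measured genes and features. Trhr (thyrotropin-releasing hormone receptor), Crhr1 (corticotropin-releasing hormone receptor) and Drd2 (the dopamine receptor that restrains prolactin), all present in brain too, had differences of 0.04, -0.10 and -0.14, and Gnrhr was never above background.

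Among 26 transcription factors of pituitary development, 0 were separated by 1 log2 unit, and 3 of the 21 that passed the filter lay higher on all 3 arrays without overlap. Over all genes and features that passed, 0.288% lay higher in this way. Lhx3, a LIM-homeodomain factor required for most anterior cell types, was at -0.86, -1.05 and -1.09 against -4.91 to -1.68 (median -1.95). Pitx1, a homeodomain factor of the oral ectoderm and its pituitary pouch, was at -1.75, -1.62 and -1.96 against -3.12 to -2.15 (median -2.89). The gaps of Lhx3 and Pitx1 were 0.58 and 0.20.

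The other Lhx3 probe had a gap of only 0.01. Lhx3 is also made in hindbrain and spinal cord, and its 4 lowest values, -4.91 in heated 4, -3.93 in fresh 2, -2.83 in heated 2 and -2.24 in freeze-dried 2, were on the 4 arrays with low Hoxb5. For Pitx1 the highest of the other arrays were freeze-dried 2 (-2.15) and irradiated 3 (-2.28). Freeze-dried 2 carried epidermal genes and had the most Cga of the 13, and irradiated 3 carried genes of nasal epithelium. The source of their Pitx1 signal was not tested.

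Several factors of early pituitary or single-lineage development were not detected. Pou1f1, which drives Gh, Prl and Tshb, was at -6.83, -7.56 and -6.77 and was above background on 0 of 16 arrays. Hesx1 and Tbx19, the corticotrope factor, were never above background either. Factors shared with the brain overlapped: Neurod1 differed by 0.20, Isl1 by -0.14, Sox2 by 0.05 and Otx2 by -0.09. For Pou1f1, Hesx1 and Tbx19 neither side of the split gave a signal that could be compared.

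Genes of hormone processing and secretory granules showed no separation. All 18 passed the filter, 0 were separated or free of overlap, and their median difference was 0.03. The chromogranins Chga and Chgb, the granule protein Scg2, the convertases Pcsk1 and Pcsk2 that cut Pomc, and the carboxypeptidase Cpe had differences of -0.02, 0.11, 0.10, 0.08, -0.08 and 0.05. These genes are also made by neurons, and Cpe ran from 6.85 to 7.22 on the other arrays, around its 7.08, 6.97 and 7.14 on the 3.

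Markers of pituitary stem and folliculostellate cells had higher means on the 3 arrays for 11 of the 13 that passed, with a median difference of 0.13, against -0.0022 over the 28509 that passed; none was free of overlap. Krt18, a keratin of simple epithelia, came nearest, at 0.27, 0.42 and 0.42 against -0.54 to 0.30. The adhesion molecule Epcam differed by 0.86, the tight junction gene Cldn9 by 0.74 and Krt8 by 0.33. The highest Epcam value of all, -4.41, was in freeze-dried 2, the array with epidermal genes. Taking the 5 pituitary lists as 1 set, 77 genes were measured, 67 passed the filter, 5 were separated (against 0.0175% of all genes and features that passed) and 8 were higher without overlap (against 0.288%). The 5 and the 8 include Gh, which chose the arrays. They also include Prl and Tshb, which like Gh passed the filter only through those 3 arrays. These shares thus describe the choice and are no separate support.

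**Figure D3:**
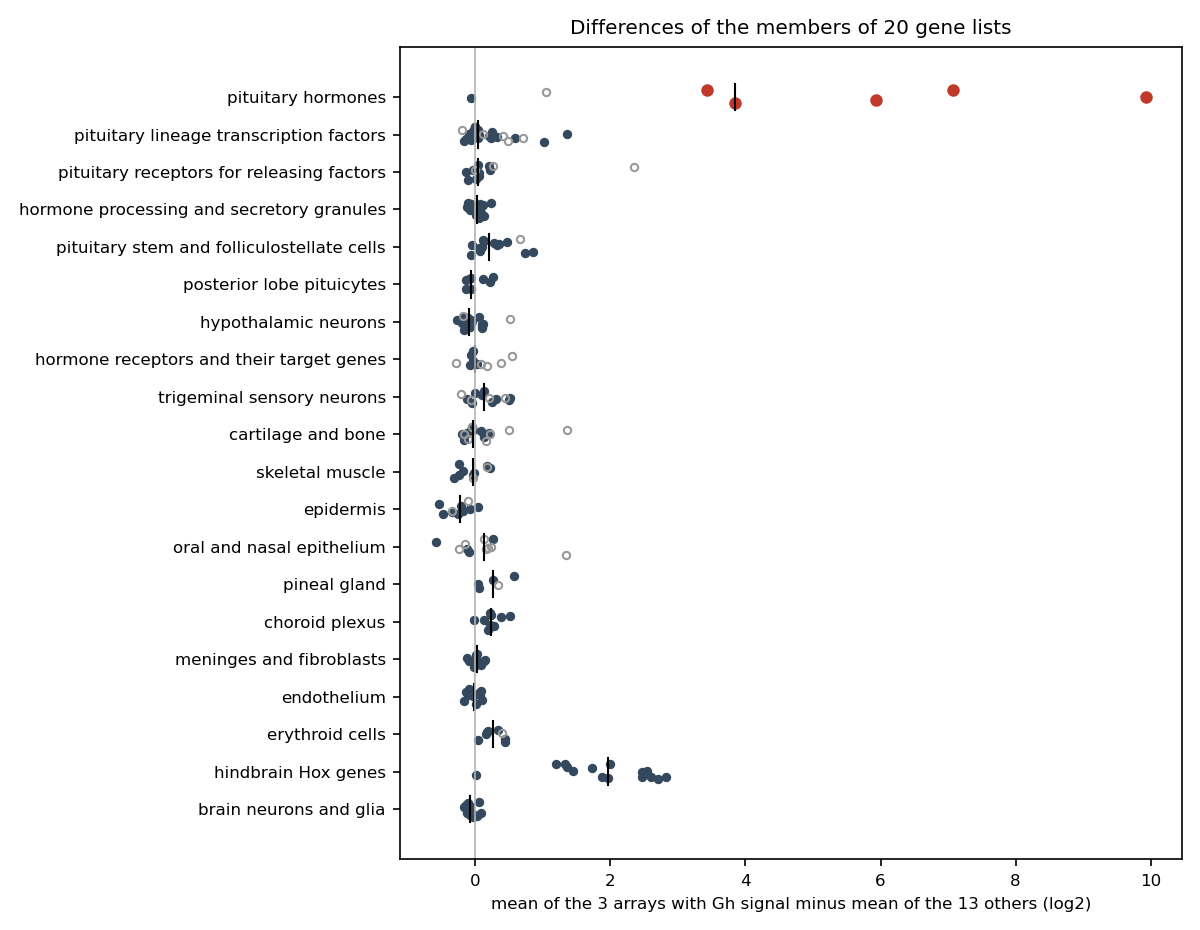
Difference between the mean of the 3 arrays with Gh signal and the mean of the 13 others (x axis, log2) for each measured member of 20 gene lists (1 point per gene; open points did not pass the filter; vertical marks are list medians). The 5 separated hormone genes (red) lie between 3.44 and 9.94, most other points lie within 1 of zero, and the hindbrain Hox genes lie to the right with a median of 1.97.

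Genes of the neighbouring posterior lobe did not stand apart. The posterior lobe consists of axon endings of hypothalamic neurons and glia called pituicytes. All 8 pituicyte genes passed, 0 were free of overlap, and their median difference was -0.06. Arrays without Gh signal already had signal of such genes, with Lhx2 at 4.38 in fresh 1. Whether posterior lobe was present or absent therefore cannot be read from this list. Rax, a homeobox gene of the infundibulum, was at -3.72, -3.66 and -3.51 against -4.30 to -3.16, and Nkx2-1 at -0.90, -0.70 and -1.05 against -0.97 to -0.47.

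Hypothalamic genes overlapped between the 3 arrays and the others. Of 22 genes of hypothalamic neurons 20 passed, 0 were free of overlap, 5 of the 20 had a higher mean on the 3 arrays, and the median difference was -0.09. Avp (vasopressin) differed by -0.14, Oxt (oxytocin) by -0.17, Ghrh (growth hormone-releasing hormone) by -0.16, Trh by -0.11 and Crh by 0.10. Genes that respond to pituitary hormones or carry their signal in other tissues did not stand apart either: the receptors Ghr and Prlr differed by 0.03 and -0.03, and Igf1, Socs2 and Cish, targets of growth hormone signalling, by -0.06, -0.07 and -0.03.

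None of the lists for other tissues that border the brain had a gene separated or free of overlap. Median differences were 0.13 for trigeminal sensory neurons, -0.04 for cartilage and bone, -0.03 for skeletal muscle, -0.23 for epidermis, 0.13 for oral and nasal epithelium and 0.02 for meninges and fibroblasts. The choroid plexus, which secretes cerebrospinal fluid, had higher means for 9 of 10 genes with a median of 0.23, and Ttr was at 5.60, 5.87 and 5.86 against 5.23 to 5.86. The choroid plexus list's mean level was 0.46 to 0.67 on the 3 arrays and 0.07 to 0.73 on the others. Pineal gland genes had higher means for 4 of the 4 that passed, with a median of 0.27 over the 5 measured and list means of -2.94 to -2.67 against -3.38 to -2.69. Red cell genes had higher means for 7 of the 7 that passed, with list means of 1.86 to 2.30 against 1.48 to 2.29. Hindbrain Hox genes had a median difference of 1.97, which was 0.30 once the 5 arrays with high Krt14, high Acta1 or low Hoxb5 were left out. The part of these shifts in the results above was not tested.

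Outside the lists, the genes with the widest gaps were small differences from brains that already had signal. Fam24b was at -0.36, -0.37 and -0.45 against -1.25 to -0.72. Sytl4 (granuphilin), which docks secretory granules in endocrine cells, was at -2.70, -2.98 and -2.75 against -3.77 to -3.20. Dhh, a hedgehog ligand, was at -2.16, -2.61 and -2.61 against -3.67 to -2.82, and the LIM-homeodomain gene Isl2 at -3.70, -3.62 and -3.83 against -5.24 to -3.99. Gphb5, a beta subunit related to those of the pituitary glycoprotein hormones, was at -4.57, -4.40 and -2.92 against -5.26 to -4.68, so that heated 1 stood above the rest. The remaining genes with RefSeq symbols among the 25 widest were 1810062G17Rik, Smim22, Tbc1d2, Sytl3, Clec4n, Wfdc2, 2610035F20Rik, Kif16b, Hes1, Nr2c1, Gsx1 and Rps3a1, with gaps of 0.24 down to 0.04.

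Downward, the 10 named genes with the widest gaps reached 0.28 at most. Kir3dl2 led them but was above background on 0 of the 3 arrays and on 4 of the 13. Fads2, a fatty acid desaturase, was at 1.67, 1.67 and 1.68 against 1.74 to 1.98. The others were Slc23a4, Cul4a, Tmem29, Ttc27, Stat4, 9330159F19Rik, Zdhhc14 and Enox1, with gaps of 0.07 down to 0.03.

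The hormones did not vary in step among the 3 brains. Gh and Prl were both highest in fresh 3 (0.22 and 0.70 above their mean over the 3 arrays) and lowest in freeze-dried 1 (-0.27 and -0.66). Tshb ran the other way, highest in freeze-dried 1 (0.47) and lowest in fresh 3 (-0.28). Cga and Pomc were highest in heated 1 (0.32 and 0.15) and lowest in freeze-dried 1 (-0.46 and -0.10). These orders were the same after quantile normalization and after normexp background correction. The range over the 3 arrays was 0.49 for Gh, 1.37 for Prl, 0.75 for Tshb, 0.78 for Cga and 0.25 for Pomc, where the median gene had 0.28 and the 95th percentile was 1.15. The range of Pomc was thus below that of the median gene. Freeze-dried 1 was on slide 1, and fresh 3 and heated 1 were on slide 2. Its deviations therefore cannot be told apart from a difference between slides. With 1 array per animal, fewer cells of a type and less RNA per cell cannot be told apart either.

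The differences were also taken within each slide; for Gh their direction is fixed by the choice of arrays. On the slide with 1 array with Gh signal and 7 others, where 19 genes and features were separated upward and 42 downward, the mean differences were 9.60 for Gh, 2.96 for Prl, 6.24 for Tshb, 6.54 for Cga and 3.71 for Pomc. On the slide with 2 and 6 they were 10.14, 3.55, 5.88, 7.39 and 3.94. Background correction with normexp and an offset of 50 shrank the differences of the dim genes, to 6.25 for Gh, 0.88 for Prl, 2.60 for Tshb and 3.81 for Cga, while Pomc stayed at 3.65.

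The 5 hormone genes had a large spread within groups. The within-group SD was pooled over all 4 groups. Among 28509 genes and features ranked by it, Gh was at rank 2, Cga at 6, Tshb at 17, Pomc at 54 and Prl at 60. This spread shows the split that chose the arrays once more, within groups, so the ranks are no separate support. Gh, Prl and Tshb passed the filter only through the arrays with Gh signal. Gh had a mean of -4.26 ± 4.81 in the fresh group, -5.07 ± 4.97 in the freeze-dried, -7.56 ± 0.12 in the irradiated and -4.78 ± 5.00 in the heated group (SD, n = 4 each).

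The study's own comparisons between groups use the labels and not the rule, so they were tested. With limma and Benjamini-Hochberg adjustment over all 28509 genes and features, freeze-dried against fresh gave 0 calls (0%; 2702 at an unadjusted p under 0.05) and irradiated against freeze-dried gave 0 (0%; 1953 unadjusted). Normexp and quantile normalization gave 0 for both as well. Gh differed by -2.49 (SE 2.80) between irradiated and freeze-dried offspring, with an adjusted p of 0.828 in limma. Without the 3 arrays, which were chosen for high Gh, the difference was -0.01 (SE 0.31), a drop that the choice itself fixes. Pomc differed by -0.97 (SE 1.097) with all arrays and by -0.04 (SE 0.12) without the 3. In freeze-dried against fresh and heated against freeze-dried, where each group held 1 such brain, the Gh differences were -0.81 and 0.28 with the same SE of 2.80. With all 16 arrays, the lowest adjusted p (limma) for the 5 hormone genes in the 3 comparisons was 0.78, for Tshb in irradiated against freeze-dried. Without the 3 arrays the lowest was 0.454 (limma), for Prl in heated against freeze-dried. On those 13 arrays Gh, Prl and Tshb were well above background on none. They stayed in the test only through the arrays left out, so their differences there compare background and decide nothing.

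**Figure D4:**
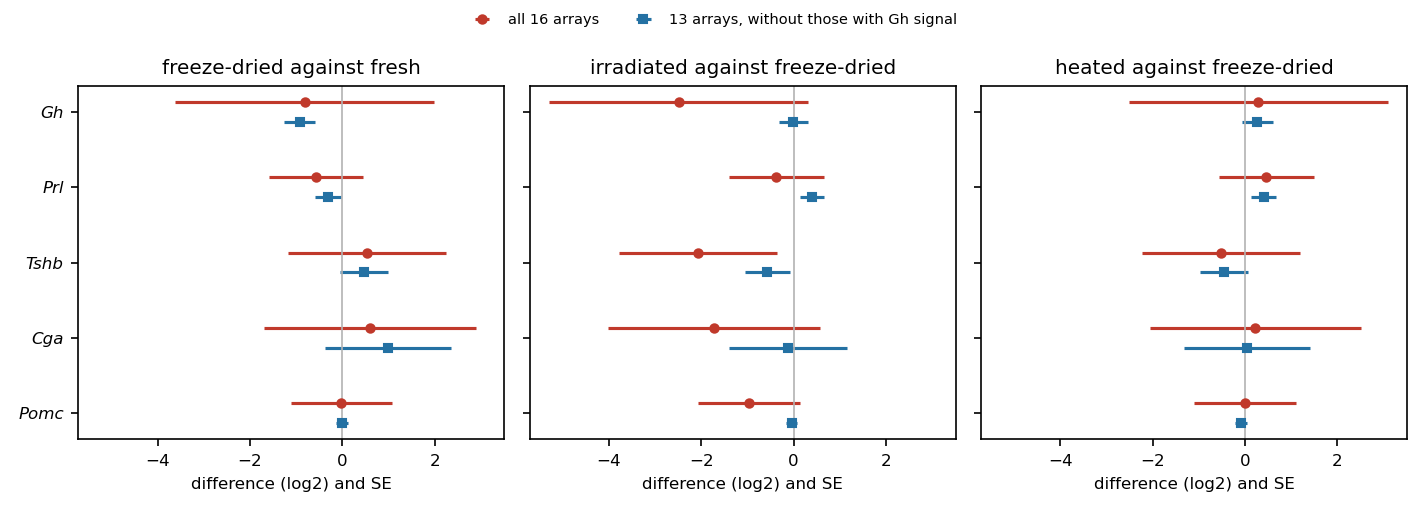
Differences between groups (x axis, log2, with bars of 1 SE from limma) for the 5 hormone genes in 3 comparisons, with all 16 arrays (circles) and with the 13 arrays left after removing those with Gh signal (squares). Bars are wider with all arrays; for Gh the SE is 2.80 with them and 0.31 to 0.34 without, which the choice of arrays by Gh fixes.

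Heated against freeze-dried was the comparison with calls: 836 of 28509 (2.93%) passed in limma. Among the 67 members of the 5 pituitary lists that were tested, 6 passed, which is 8.96%, and 23 had an unadjusted p under 0.05 (34.3%, against 22.4% of all). None of the 6 was a hormone. The receptors Trhr (0.45, SE 0.07, adjusted p 0.00720 in limma) and Npr3 (0.42, SE 0.10) rose, and Gata2 (-0.50, SE 0.10), Otx2 (-0.43, SE 0.07), Insm1 (-0.42, SE 0.09) and Rbpms (-0.42, SE 0.10) fell, with limma adjusted p from 0.0131 to 0.0455 for the last 5. All 6 are expressed in brain and were well above background on all 16 arrays, and they overlapped between arrays with and without Gh signal.

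These calls compare groups that share no slide, so no value within a slide exists. With the slide as a block in limma, estimated from the fresh and irradiated groups that span both slides, 0 genes were called (2169 at an unadjusted p under 0.05), the 6 members included. Leaving out the 3 arrays with Gh signal lowered the count to 225 (0.789%), of which 166 were among the 836, and to 3 of the 67 members (Gata2, Trhr and Npr3). Leaving out any single array of the 2 groups compared also lowered the count: it was 468 without freeze-dried 1 and 400 without heated 1, the 2 arrays with Gh signal in this comparison. Of the arrays without Gh signal, the count was 174 without freeze-dried 2, 445 without freeze-dried 3, 560 without freeze-dried 4, 137 without heated 2, 358 without heated 3 and 208 without heated 4. Without fresh 1 or fresh 2, which enter only through the shared spread, it was 1260 or 1272. With Gh signal as a covariate and all arrays kept, 801 passed.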

How the data were processed

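RNA of 16 neonatal brains was hybridized to 1-colour arrays, 1 per animal. Per the file headers, the authors' scans went through Agilent Feature Extraction 11.0.1.1, also named in the submitters' processing notes. Its deposited output is intensity per spot, with background subtracted and trends removed but without scaling between arrays. A table of processed values, also deposited, gives log2 values of 31313 probes with column medians of 9.335 to 9.348; its scale, centring and method are not given in the sources used here, and it served as an alternative only, with Pomc as the 1 hormone gene of the 5 in it.

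Control spots and 2043 spots marked as outliers were dropped. No spot was saturated. Spots of a probe were averaged, log2 signals were scaled to the 75th percentile, and the brightest of a gene's probes stood for it. RefSeq symbols named 32989 of 56605 probes. Genes and features well above background on at least 3 of 16 arrays were kept (16596 with a symbol, 11913 without). Groups were compared with limma 3.58.1 in R 4.3.3 (4 group means; adjusted p under 0.05); data.table, version 1.17.8, was used for reading. Scripts were tested on simulated data. The replicate numbers of the labels were not used as pairs. Correlations of same-numbered deviations ran from -0.30 to 0.32 (median 0.04). Those of differently numbered ones in different groups ran from -0.39 to 0.49 (median -0.004). Named genes were the members of the pituitary, posterior lobe, hypothalamic and hormone target lists, up to 4 members of each other list, and the 25 widest gaps upward and 10 downward. A few genes that meet this rule are not reported here. The members and lists were chosen with earlier results of these data known.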

Additional observations from a re-analysis of the deposited data

Results flagged for a closer look

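Within each group of 4 animals, the gap between the highest or lowest animal and its nearest neighbour was set against the range of the group, and animals past Dixon's critical value at the 95% level are listed here. Of 108 group checks, over the 7 hormone genes and the mean levels of 20 gene lists, 21 passed, where chance gives about 1 in 20. The checks overlap, since the mean of the hormones repeats the single hormones, so that share is only a rough guide. Of the 21, 16 were on the arrays with Gh signal, which were chosen by Gh, so those for the hormones describe the choice. The choice does not fix the means of the lineage transcription factors and the choroid plexus genes in fresh 3, also among the 16.

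Fresh 3 stood above its group for Gh (ratio 0.842), Prl (0.916), Pomc (0.898), Cga (0.984) and Tshb (0.905), and for the mean of the hormones (0.979). Freeze-dried 1 stood above for Gh (0.971), Prl (0.925) and Pomc (0.877). Its Cga and Tshb did not pass, in a group where freeze-dried 2 was second highest for both, with Tshb there not above background. Heated 1 stood above for Gh (0.96), Prl (0.869), Pomc (0.972), Tshb (0.865) and the mean of the hormones (0.844).

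The mean of the lineage transcription factors was high in fresh 3 (ratio 0.949, level -0.84), as was that of the choroid plexus genes (0.93, level 0.46), although the latter level lay within the range of the other groups. Pomc was low in irradiated 3 (0.901, level -1.03), again within the range of the other arrays without Gh signal. Skeletal muscle genes were high in fresh 1 (0.924), epidermal genes in freeze-dried 2 (0.952) and oral and nasal epithelium genes in irradiated 3 (0.933), and hindbrain Hox genes were low in fresh 2 (0.913).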

How the results depend on the processing

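The number of genes separated upward (5) and of pituitary genes among them (5) stayed within 1.5 times under quantile normalization, normexp, no filter, averaged probes, a gap of at least 2, the slide with 2 of the 3 arrays, and with the arrays with high Krt14, high Acta1 or low Hoxb5 or with Cga left out. It was 1 among the deposited values, where Pomc was the only gene of the 5 present. There the loss of the others is by construction, while other genes could have been separated. It was also 1 when all 16 arrays had to be above background, by construction, since only Pomc remained to be counted. Any gap above 0 gave 82 upward, 8 of them pituitary genes, and 55 downward. Within the slide with a single array with Gh signal, 19 genes were separated upward and 42 downward, where 1 array has to clear 7. Leaving out each of the 3 arrays in turn gave 5 to 5 upward, 5 to 5 pituitary genes and 0 to 1 downward. The Pou1f1 difference of 0.41, all at background, was -0.0418 within that slide.

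Freeze-dried against fresh gave 1 call with Gh signal as a covariate and 1 with the slide as a block, and 0 to 4 when single arrays were left out; irradiated against freeze-dried gave 0 to 2. Heated against freeze-dried (836) gave 225 without the arrays with Gh signal, 0 with the slide as a block, 0 in the deposited table, and 137 to 1272 without single arrays; the cause of the last range was not tested. With the replicate number as a replicate block it gave 1001 and the other comparisons 0. Signals near background limit Prl, Fshb, Ghrhr and Pou1f1.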

Other observations

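A few genes of other tissues were above background in 1 of the 3 brains and not in the other two. Matn3, a cartilage matrix protein, was at -3.82 in fresh 3 and at -7.52 and -6.90 in freeze-dried 1 and heated 1, and was above background on 0 of the other 13 arrays. Ehf, an epithelial transcription factor, was at -3.94 in freeze-dried 1 against -6.57 and -6.88, and was above background on 1 other array, fresh 1.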
